A study of Mus musculus with 15 samples.

Results

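The integrated stress response is the program by which mammalian cells slow general translation and switch on a set of stress genes. It is described here by 10 genes, found by their symbols among the 32152 genes of an RNA-seq table of mouse embryonic stem cells. They are the transcription factors Atf4, Atf5, Atf3 and Ddit3, the feedback regulators Trib3 and Ppp1r15a, the intracellular effectors Chac1 and Sesn2, and the secreted proteins Gdf15 and Stc2. The 15 samples fall into 5 groups of 3 replicates, all of embryonic stem cells of the C57BL/6 strain, named wild type in the study's design, in a medium with serum and leukemia inhibitory factor. The control was a mock treatment whose length is not given. Oligomycin, which blocks the mitochondrial ATP synthase and with it oxidative phosphorylation (OXPHOS), was given at 1 nM or 10 nM for 48 hours. The other inhibitor, given for the same time at 5 mM or 10 mM, was 2-deoxy-D-glucose (2-DG), an analogue of glucose that inhibits glycolysis. No feeder layer or number of cell lines is named, and nothing shows that the replicates came from different cultures, so p-values measure the spread between these samples, which may be technical.

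Several kinases that answer to different stresses phosphorylate the alpha subunit of the translation initiation factor eIF2. Phosphorylated eIF2 inhibits its own exchange factor, eIF2B, and most translation falls, while a few messages with upstream reading frames, Atf4 among them, are translated more. ATF4 then binds, usually as a dimer with a C/EBP protein, to composite elements at genes for amino acid supply, redox balance and cell death. Because ATF4 output is set largely by translation, the mRNA levels given here are not levels of ATF4 protein, and no phosphorylation was measured.

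The C/EBP-ATF response element (CARE) and the cAMP response element (CRE) were searched in the window from 250 bases before to 50 bases after each gene's start, using RefSeq sequences of build GRCm38.p6. These sequences are shown because ATF4 and its partners are known to act through such elements. All 10 genes had a window, 12 windows in all. The letters TGATGNAA, for the CARE and searched on both strands, were found in the windows of Atf3, Chac1 and Trib3, against 3.97% of 32851 mouse windows and 2.24% of the 12003 windows of tested genes. The letters TGACGTCA, for the CRE, were found only in the window of Ppp1r15a among the 10 genes, against 1.79% and 3.11%. The endoplasmic reticulum stress element (ERSE), searched by its consensus of a CCAAT box and a CCACG box, was in none of the 12 windows, against 0.119% and 0.133%. No 2 matches overlapped, and a match is only a description of letters. In the lines below each sequence runs 5′ to 3′ on the strand of its gene, with the matched letters in capitals. The CARE of Atf3, Chac1 and Trib3 therefore reads as its reverse complement. Counted from the RefSeq start of its window, the match began 110 bases before for Atf3, 193 bases before for Chac1, 12 bases before for Ppp1r15a and 15 bases after for Trib3. These starts are not always the 5′ ends of the gene models in the table, given below. They are the same base for Ppp1r15a and lie 13 bases apart for Chac1. For Trib3 the RefSeq start lies 28 bases outside the model, so its match is outside the model too, and for Atf3 it lies 34706 bases inside the model, at a start within the gene.
Atf3, chr1:191183341-191183540, minus strand: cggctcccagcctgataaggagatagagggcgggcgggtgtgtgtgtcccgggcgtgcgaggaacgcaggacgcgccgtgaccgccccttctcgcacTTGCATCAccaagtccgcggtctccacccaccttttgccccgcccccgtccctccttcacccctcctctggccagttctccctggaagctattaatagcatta
Chac1, chr2:119351029-119351228, plus strand: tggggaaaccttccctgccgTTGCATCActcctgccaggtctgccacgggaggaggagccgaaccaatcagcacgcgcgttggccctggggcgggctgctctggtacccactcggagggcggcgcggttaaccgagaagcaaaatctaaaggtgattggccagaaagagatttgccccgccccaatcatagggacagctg
Trib3, chr2:152344028-152344057, minus strand: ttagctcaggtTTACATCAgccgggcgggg
Ppp1r15a, chr7:45526269-45526468, minus strand: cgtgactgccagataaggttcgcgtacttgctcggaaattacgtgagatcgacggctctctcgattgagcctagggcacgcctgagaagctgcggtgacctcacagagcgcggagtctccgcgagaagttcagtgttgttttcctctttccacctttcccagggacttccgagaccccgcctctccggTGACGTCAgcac

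Expression values are the authors' FPKM, fragment counts corrected for gene length and library size, so levels can be set beside each other between genes. The steps between low FPKM values gave an estimated depth of 17.4 to 19.2 M reads per sample, and 128 to 15523 estimated reads for a response gene in a sample. Between replicates, the coefficient of variation of the 10 genes had a median of 5.19% in the control group, 3.39% with 1 nM oligomycin, 9.7% with 10 nM, 3.56% with 5 mM 2-DG and 4.45% with 10 mM. Replicate 1 of 10 nM oligomycin stood apart from its group over all tested genes, with a root mean square deviation of 0.181 on the log2 scale against 0.106 to 0.145 for the other samples, and it was the lowest of its group for all 10 genes. Its FPKM summed over all genes, 285204, was also the lowest of the 15 samples, against 325805 and 316296 for replicates 2 and 3. The part of this lower sum in its levels was not tested.

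The labelled cell type was checked on its defining markers, whose summed FPKM is plotted by sample. The 8 embryonic stem cell markers summed to 1345 to 1470 FPKM in the control samples, 835 to 913 with 1 nM oligomycin, 315 to 419 with 10 nM, 1281 to 1360 with 5 mM 2-DG and 1199 to 1230 with 10 mM. None of these markers was at 0 in any group. The sums of the oligomycin samples thus lay below all control and 2-DG samples, and 7 of the 8 markers fell at 1 nM and 8 at 10 nM, with falls on the log2 scale of 0.86 and 1.99 for Pou5f1, 0.68 and 1.92 for Sox2 and 0.70 and 1.79 for Nanog, the core pluripotency factors, and of 0.82 and 2.1 for Dppa5a. With 2-DG, 3 of the 8 were higher and 0 lower at 5 mM (1 called without control replicate 1 or 2), and 2 were higher and 2 lower at 10 mM (2 called in all without control replicate 2 or 3 or without replicate 2 of 10 mM). In bulk RNA, fewer cells of a type and less RNA per cell cannot be told apart.

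Markers of other cells were present as well. The 20 fibroblast markers summed to 2064 to 2106 FPKM in the control samples, 4823 to 4892 and 6552 to 6733 with 1 nM and 10 nM oligomycin, and 1813 to 1947 and 2083 to 2219 with 5 mM and 10 mM 2-DG. Of 19 tested, 17 rose and 0 fell at 1 nM, 18 rose and 0 fell at 10 nM, 1 rose and 5 fell at 5 mM 2-DG, and 6 rose and 4 fell at 10 mM. At 1 nM and 10 nM oligomycin Acta2, smooth muscle actin, rose by 1.60 and 2.03 and Lox, a collagen cross-linking enzyme, by 1.40 and 2.03. Fbln2 and Col1a1, of the extracellular matrix, rose by 1.00 and 1.58 and by 1.08 and 1.56. Of the markers near 0, S100a4 was at 0 in all samples of 1 nM oligomycin and of 5 mM 2-DG and under 1 FPKM in every group, and Tagln was under 1 FPKM in the control and 2-DG groups. Tagln thus passed the filter of 1 FPKM in 3 or more samples only through the oligomycin samples. Its place among the 19 tested is therefore no independent sign of a rise with oligomycin. The 10 macrophage markers summed to 119 to 132 FPKM in the control group, 130 to 178 and 164 to 174 in the oligomycin groups, and 63.7 to 65.7 and 57.7 to 60.5 in the 2-DG groups. Of 8 tested, 4 rose at 1 nM oligomycin (2 without control replicate 3 or without replicate 1 of 1 nM), 5 rose at 10 nM (3 without control replicate 2 or without replicate 1 of 10 nM), and 5 and 4 fell at 5 mM and 10 mM 2-DG. Lyz2, lysozyme, fell by 1.22 and 1.40 and Cd14 by 1.13 and 1.06 with 2-DG, while Cd68 rose by 0.76 and 0.84 and Tyrobp by 0.56 and 0.82 with oligomycin. None of the 10 was at 0 in a whole group, and Ptprc, the pan-leukocyte marker, stayed under 1 FPKM in every group. More of these markers rose than fell with oligomycin, where all 10 response genes rose. With 2-DG all 10 response genes rose too, while the fibroblast markers moved both ways and 0 of the 8 tested macrophage markers rose. The part of these markers in the levels below was not tested.

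**Figure D1:**
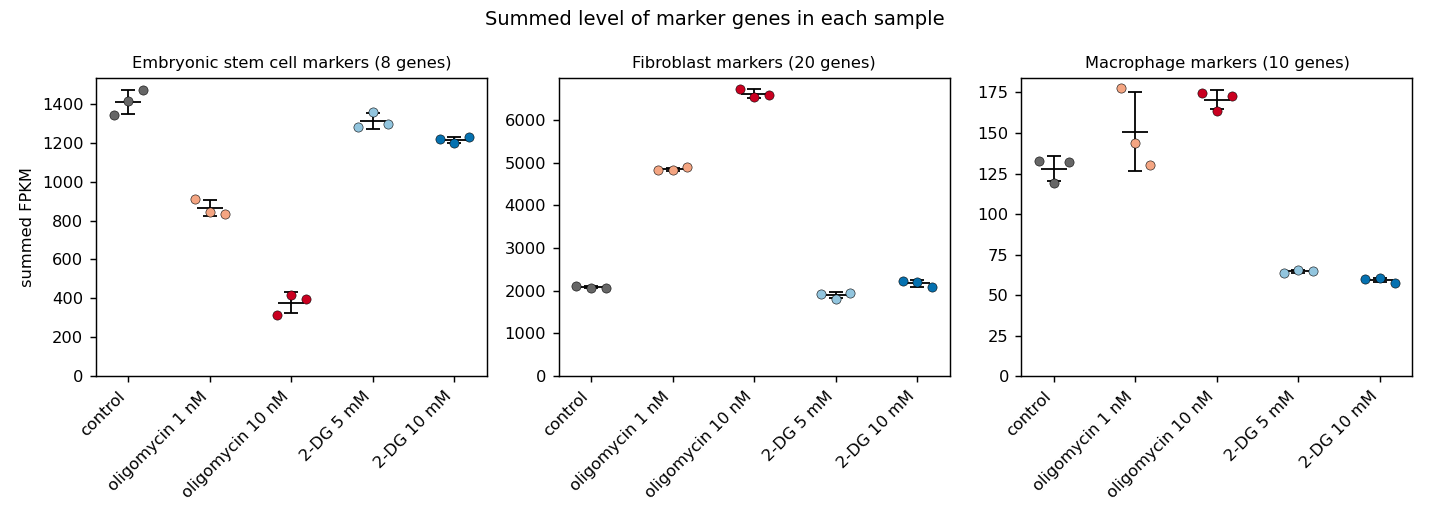
Summed FPKM of the embryonic stem cell, fibroblast and macrophage marker genes in each of the 15 samples, by group. Points are samples and the bar with whiskers is the mean ± SD of 3. The stem cell sum is lowest with 10 nM oligomycin, at 315 to 419 FPKM, where the fibroblast sum is highest, at 6552 to 6733 FPKM.

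Both inhibitors raised all 10 response genes at both doses, each compared with the mock samples. The gain ran from 1.46-fold (Sesn2) to 4.33-fold (Ddit3) in the group means at 1 nM oligomycin, from 1.39-fold (Sesn2) to 4.99-fold (Ddit3) at 10 nM, from 1.27-fold (Ppp1r15a) to 3.31-fold (Atf5) at 5 mM 2-DG, and from 1.65-fold (Sesn2) to 4.98-fold (Atf5) at 10 mM. The gene that gained most was therefore the same at both doses of an inhibitor and differed between the inhibitors. The test was limma on log2(FPKM + 1) over all 15 samples and 13284 genes, with Benjamini-Hochberg adjusted p below 0.05 as the threshold for saying that a gene rose or fell. On that scale changes of low genes are understated.

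All 10 genes rose in each of the 4 comparisons with control, where, of all tested genes, 63% changed in either direction at 1 nM oligomycin, 75.8% at 10 nM, 35.3% at 5 mM 2-DG and 48.2% at 10 mM. The shares that rose were 29.8%, 34%, 15% and 21.4%, and those that fell 33.2%, 41.7%, 20.3% and 26.8%. The median log2 change of the 10 genes was 1.25, 1.41, 0.87 and 1.26, beside -0.03, -0.08, -0.02 and -0.03 for all tested genes. Gains of at least 2-fold on this scale were reached by 7, 7, 4 and 7 of the 10 genes, against 1.58%, 6.12%, 0.339% and 0.805% of tested genes. In the ranking of all tested genes by change, 6, 4, 7 and 8 of the 10 were in the top 1%. The lowest of the 10 stood at the 88.9th, 77.9th, 91.9th and 97.5th percentile. For every one of the 10 genes, each treated sample lay above all 3 control samples, as it did for 32.9%, 33.5%, 22.4% and 26.5% of tested genes. The 4 comparisons share the same control samples. The 10 genes were chosen with earlier results of these data known, so their shares and ranks, here and below, are a description and no independent support.

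**Figure D2:**
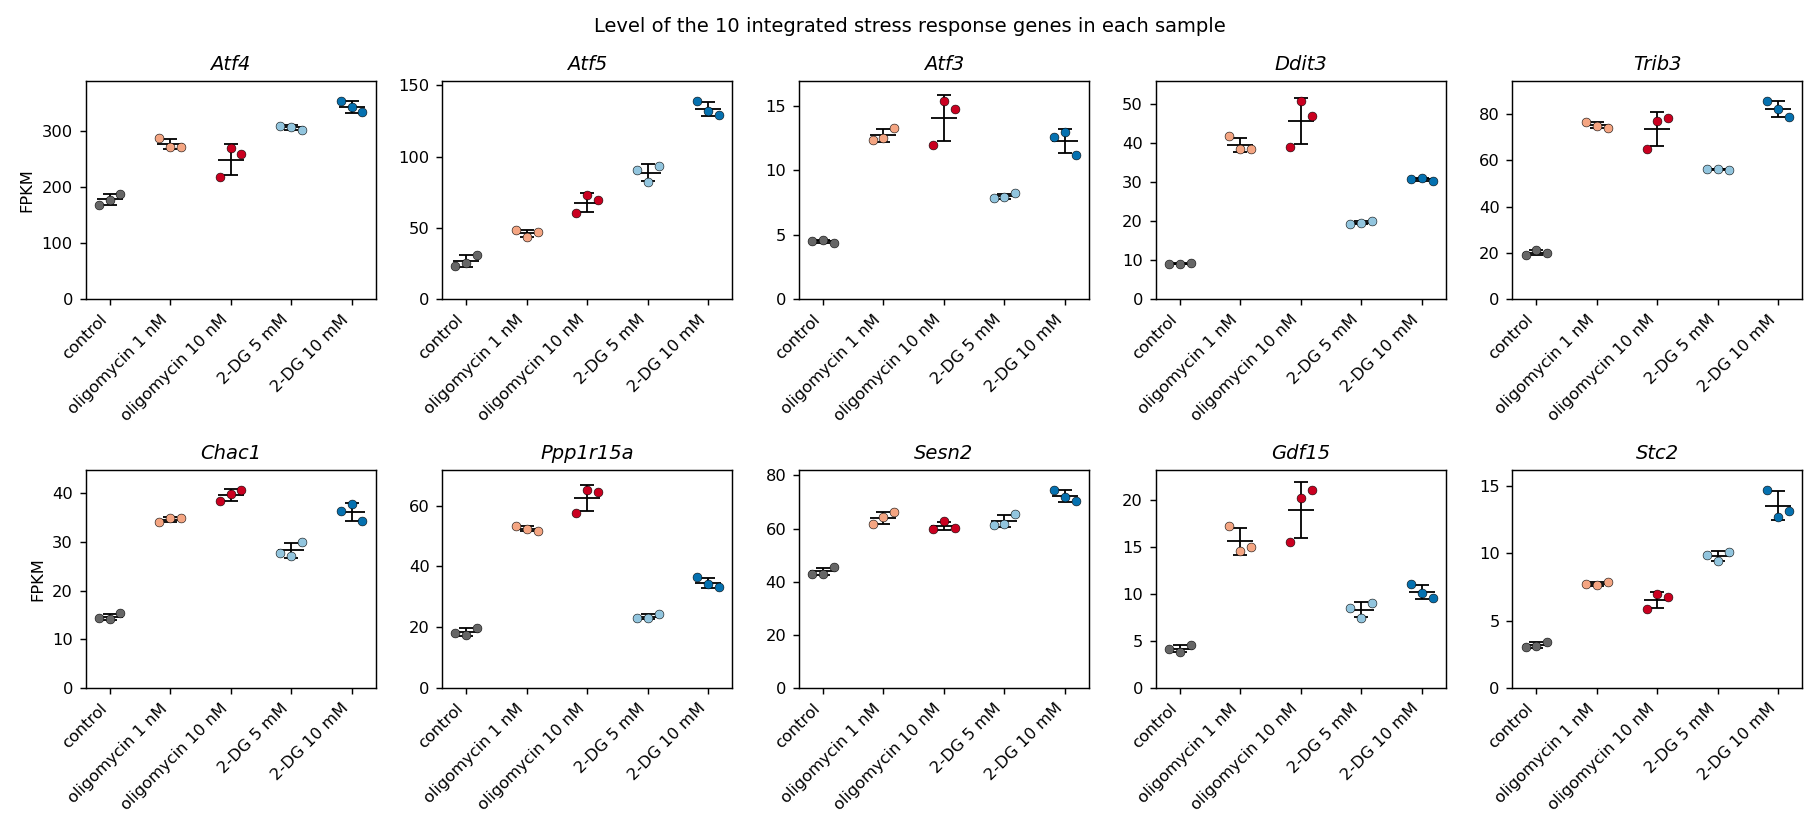
FPKM of the 10 response genes in each of the 15 samples, 1 panel per gene, all axes from 0. Points are samples and the bar with whiskers is the mean ± SD of 3 per group. In every panel the 3 control samples are the lowest, and the highest group is 10 mM 2-DG for 5 genes and 10 nM oligomycin for the other 5.

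**Figure D3:**
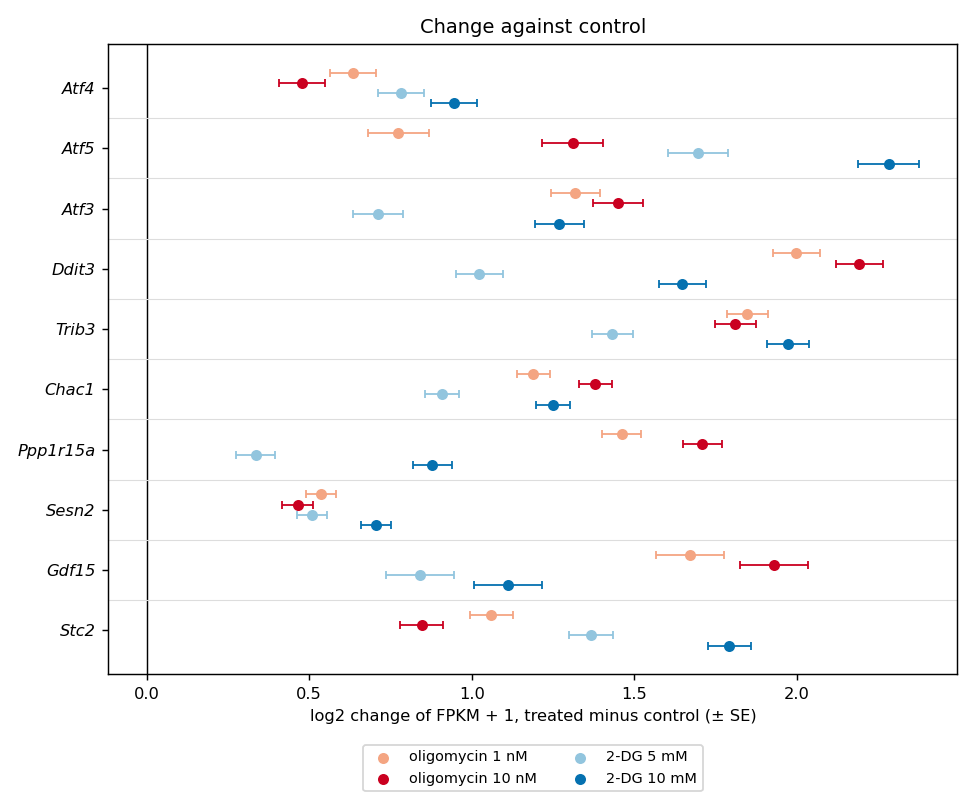
Log2 change of FPKM + 1 against control for the 10 response genes, with the SE of the limma fit as whiskers, coloured by inhibitor and dose. All 40 points lie above 0. The 2-DG points lie farthest right for Atf4, Atf5 and Stc2 while the oligomycin points do so for Atf3, Ddit3, Ppp1r15a and Gdf15.

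Among the transcription factors, Atf4, the hub of the response (ENSMUSG00000042406, chr15:80255184-80257540, plus strand, build GRCm38), was the most abundant of the 10 genes. Its level was 169, 178 and 188 FPKM in the control samples, 287, 272 and 272 FPKM with 1 nM oligomycin, and 218, 270 and 260 FPKM with 10 nM. In the 2-DG samples it was 310, 308 and 302 FPKM at 5 mM and 354, 343 and 334 FPKM at 10 mM. All treated samples were above the control samples, and the 2-DG samples were above all oligomycin samples. In a single pair of a 2-DG and an oligomycin group, 33.1% to 39.3% of tested genes lay wholly above with 2-DG. Wholly below lay 33.3% to 36%. The shares of tested genes with all such pairs apart, or with all 5 groups apart, were not counted, here or for the genes below. Against control the log2 changes were 0.64, 0.48, 0.78 and 0.94 at 1 nM, 10 nM, 5 mM and 10 mM, each with an SE of 0.07 and with adjusted p of 3.2e-06, 2.5e-05, 2.3e-06 and 1.7e-07. Atf4 and Sesn2 had the smallest gains of the 10 genes at 1 nM and at 10 nM oligomycin.

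Atf5 encodes a related basic leucine zipper (bZIP) factor, also translated through upstream reading frames and linked to the mitochondrial unfolded protein response (ENSMUSG00000038539, chr7:44812256-44816658, minus strand). It stood at 23.7, 25.5 and 31.3 FPKM in the control samples, 48.3, 43.5 and 47.1 FPKM with 1 nM oligomycin, and 60.7, 73.2 and 69.3 FPKM with 10 nM. With 2-DG it reached 90.4, 82.1 and 93.4 FPKM at 5 mM and 139, 132 and 129 FPKM at 10 mM. No 2 of the 5 groups overlapped, and the order rose from control through both oligomycin doses to both 2-DG doses. The log2 changes were 0.77, 1.31, 1.70 and 2.28, each with an SE of 0.09, with adjusted p of 6.9e-06, 1.3e-08, 2.3e-08 and 6.4e-10. Atf5 shares 82 exon bases with Nup62 on the opposite strand, a gene of up to 78 FPKM here. The strandedness of the libraries is not given, so reads from those bases cannot be told apart.

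Atf3 encodes a stress-inducible bZIP factor that often acts as a repressor (ENSMUSG00000026628, chr1:191170296-191218039, minus strand). It was at 4.5, 4.62 and 4.37 FPKM in the control samples, 12.4, 12.5 and 13.3 FPKM with 1 nM oligomycin, and 12, 15.4 and 14.8 FPKM with 10 nM. The 2-DG samples held 7.83, 7.92 and 8.23 FPKM at 5 mM and 12.6, 13 and 11.2 FPKM at 10 mM. The 10 mM 2-DG samples overlapped both oligomycin groups, and the 5 mM samples lay between these and the control. Log2 changes of 1.32, 1.45, 0.71 and 1.27, each with an SE of 0.08, had adjusted p of 7.4e-09, 6e-10, 1e-05 and 2.7e-08. Its CARE letters are shown above.

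Ddit3 encodes CHOP, a C/EBP family factor that takes part in stress-induced cell death (ENSMUSG00000025408, chr10:127290774-127296288, plus strand). It read 9.14, 9.11 and 9.24 FPKM in the control samples, 41.8, 38.6 and 38.6 FPKM with 1 nM oligomycin, and 39.2, 50.9 and 47.1 FPKM with 10 nM. At 5 mM 2-DG it read 19.4, 19.6 and 20 FPKM, and at 10 mM 30.9, 31.2 and 30.4 FPKM. All oligomycin samples lay above all 2-DG samples, the reverse of Atf4 and Atf5. Its log2 changes of 2.00, 2.19, 1.02 and 1.65, each with an SE of 0.07, had adjusted p of 2.1e-10, 6.9e-12, 2.4e-07 and 1.1e-09. Ddit3 shares 68 exon bases with Mars on the opposite strand, which reached 84.1 FPKM, and 105 with another annotation entry of its own symbol, and reads from these bases cannot be told apart.

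Of the feedback genes, Trib3 encodes a pseudokinase that binds ATF4 and CHOP and damps them (ENSMUSG00000032715, chr2:152337422-152344032, minus strand). Its level was 19.2, 21.3 and 20 FPKM in the control samples, 76.6, 75 and 74 FPKM with 1 nM oligomycin, and 65.1, 76.9 and 78.5 FPKM with 10 nM. With 2-DG it was 56.3, 56.2 and 55.9 FPKM at 5 mM and 85.7, 82 and 78.7 FPKM at 10 mM. The 5 mM group was the lowest of the 4 treated groups and the 10 mM group the highest. The log2 changes were 1.85, 1.81, 1.43 and 1.97, each with an SE of 0.06, with adjusted p of 1.5e-10, 1.4e-11, 5.2e-09 and 1.5e-10. Trib3 was among the 3 genes with the largest gains in each treated group.

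Ppp1r15a encodes GADD34, the subunit that brings protein phosphatase 1 to eIF2 and so ends the response (ENSMUSG00000040435, chr7:45522916-45526268, minus strand). It stood at 18.2, 17.3 and 19.8 FPKM in the control samples, 53.2, 52.2 and 51.7 FPKM with 1 nM oligomycin, and 57.5, 65.3 and 64.5 FPKM with 10 nM. The 2-DG levels were 23, 22.9 and 24.4 FPKM at 5 mM and 36.5, 34.2 and 33.3 FPKM at 10 mM. The 5 groups did not overlap, and the control and the 5 mM 2-DG group were closest, with 19.8 FPKM as the highest control sample and 22.9 FPKM as the lowest at 5 mM. Its log2 changes were 1.46, 1.71, 0.34 and 0.88, each with an SE of 0.06, with adjusted p of 5.8e-10, 1.4e-11, 0.00069 and 7.6e-08. The 0.34 at 5 mM was the smallest change of a response gene in any comparison with control. Its start region, with the CRE letters, is shown above.

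Chac1, the first of the intracellular effectors, encodes an enzyme that breaks down glutathione (ENSMUSG00000027313, chr2:119351229-119354381, plus strand). It was at 14.3, 14.2 and 15.3 FPKM in the control samples, 34, 34.8 and 34.8 FPKM with 1 nM oligomycin, and 38.3, 39.8 and 40.7 FPKM with 10 nM. It was at 27.7, 27.1 and 30 FPKM with 5 mM 2-DG and at 36.3, 37.7 and 34.2 FPKM with 10 mM. The 10 mM 2-DG samples overlapped the 1 nM oligomycin samples and lay below the 10 nM samples. The log2 changes were 1.19, 1.38, 0.91 and 1.25, each with an SE of 0.05, with adjusted p of 8.5e-10, 2.2e-11, 3e-08 and 6.8e-10.

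Sesn2 encodes sestrin 2, a leucine-binding protein that restrains the growth kinase complex mTORC1 (ENSMUSG00000028893, chr4:132492032-132510501, minus strand). Its control samples held 43, 43.1 and 45.6 FPKM, those with 1 nM oligomycin 61.6, 64.2 and 66.3 FPKM, and those with 10 nM 59.9, 62.8 and 60.1 FPKM. The 2-DG samples held 61.4, 61.8 and 65.4 FPKM at 5 mM and 74.7, 71.8 and 70.3 FPKM at 10 mM. The 2 oligomycin groups and the 5 mM 2-DG group overlapped, and the 10 mM group lay above them. The log2 changes of 0.53, 0.46, 0.51 and 0.71, each with an SE of 0.05, had adjusted p of 3.1e-07, 4.9e-07, 2.4e-06 and 5.5e-08. Sesn2 was thus the second most abundant of the genes in the control group and among the least changed.

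Gdf15 encodes a secreted cytokine that acts on a receptor in the hindbrain and is also a known p53 target (ENSMUSG00000038508, chr8:70629393-70632456, minus strand). It was at 4.18, 3.87 and 4.55 FPKM in the control samples, 17.2, 14.6 and 15 FPKM with 1 nM oligomycin, and 15.5, 20.2 and 21.1 FPKM with 10 nM. The 5 mM 2-DG samples held 8.53, 7.44 and 9 FPKM and the 10 mM samples 11.1, 10.1 and 9.54 FPKM. All oligomycin samples lay above all 2-DG samples. The log2 changes were 1.67, 1.93, 0.84 and 1.11, each with an SE of 0.10, with adjusted p of 1.4e-08, 8.1e-10, 3.7e-05 and 1.5e-06.

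Stc2 encodes stanniocalcin 2, a secreted glycoprotein that inhibits a protease of insulin-like growth factor binding proteins (ENSMUSG00000020303, chr11:31357307-31370074, minus strand). It read 3.03, 3.09 and 3.42 FPKM in the control samples, 7.67, 7.6 and 7.85 FPKM with 1 nM oligomycin, and 5.87, 6.96 and 6.73 FPKM with 10 nM. With 2-DG it read 9.82, 9.39 and 10.1 FPKM at 5 mM and 14.7, 12.7 and 13.1 FPKM at 10 mM. No 2 groups overlapped, and all 2-DG samples lay above all oligomycin samples, the opposite of Gdf15. The log2 changes were 1.06, 0.85, 1.37 and 1.79, each with an SE of 0.07, with adjusted p of 1.4e-08, 3.7e-08, 1.1e-08 and 3.1e-10.

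Raising oligomycin from 1 nM to 10 nM moved some of the 10 genes, Atf5 the most. The median log2 change of the 10 was 0.16, against -0.04 for all tested genes. In this comparison 4 of the 10 rose, 1 fell and 5 did not pass the test, while 46.4% of tested genes changed, 18.7% upward and 27.6% downward. Atf5 rose by 0.54 (adjusted p = 0.00036), Ppp1r15a by 0.25 (adjusted p = 0.004), Chac1 by 0.19 (adjusted p = 0.0077) and Ddit3 by 0.19 (adjusted p = 0.039) on the log2 scale in limma's test. Stc2, all of whose 10 nM samples lay below its 1 nM samples, fell by 0.21 (adjusted p = 0.017), and 30.3% of tested genes lay wholly below in this way. The call of Ddit3 was lost in limma's test without 1 nM replicate 2 (0.17, adjusted p = 0.11), 1 nM replicate 3 (0.18, adjusted p = 0.11), 10 nM replicate 2 (0.11, adjusted p = 0.18) or 10 nM replicate 3 (0.17, adjusted p = 0.12), and with no filter on low values, in a fit of the 2 groups alone or with a replicate block (0.19 in each, adjusted p = 0.086, 0.17 and 0.053). That of Stc2 was lost without 1 nM replicate 3 (-0.20, adjusted p = 0.052) or 10 nM replicate 1 (-0.15, adjusted p = 0.063), with quantile scaling (-0.15, adjusted p = 0.066) and in a fit of the 2 groups alone (-0.21, adjusted p = 0.052).

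The differences of the remaining 5 genes between the oligomycin doses, with 95% confidence intervals on the log2 scale, were -0.16 (-0.31 to -0.01) for Atf4, 0.13 (-0.03 to 0.29) for Atf3, -0.04 (-0.17 to 0.10) for Trib3, -0.07 (-0.17 to 0.03) for Sesn2 and 0.26 (0.03 to 0.48) for Gdf15. Their adjusted p values in limma's test were 0.082, 0.18, 0.66, 0.23 and 0.059. Without 10 nM replicate 1, the sample that stood apart, Gdf15 (0.39, adjusted p = 0.0029) and Atf3 (0.23, adjusted p = 0.0054) passed the test. Gdf15 also passed without 1 nM replicate 1 (0.33, adjusted p = 0.037), and Atf4 passed as lower at 10 nM without 10 nM replicate 2 (-0.22, adjusted p = 0.025).

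Raising 2-DG from 5 mM to 10 mM moved the 10 genes in 1 direction. Here 8 of the 10 rose and 0 fell, while 5.86% of tested genes changed, 3.41% upward and 2.45% downward. The median log2 change of the 10 genes was 0.48, against 0 for all tested genes, and 5 of the 10 were in the top 1% of changes. The gains were 0.62 for Ddit3 (adjusted p = 0.00049), 0.59 for Atf5 (adjusted p = 0.003), 0.56 for Atf3 (adjusted p = 0.0014), 0.54 for Trib3 (adjusted p = 0.00055) and 0.54 for Ppp1r15a (adjusted p = 0.00035) in limma's test. Those of Stc2 (0.43, adjusted p = 0.0028), Chac1 (0.34, adjusted p = 0.0024) and Sesn2 (0.20, adjusted p = 0.025) were smaller. The call of Sesn2 was lost when replicate 1 or 2 of 5 mM (0.18 and 0.19, adjusted p = 0.09 and 0.093) or replicate 1 or 2 of 10 mM (0.17 and 0.20, adjusted p = 0.088 and 0.082) was left out.

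Atf4 (0.16, 95% confidence interval 0.01 to 0.32, adjusted p = 0.2) and Gdf15 (0.27, 0.04 to 0.50, adjusted p = 0.15) did not pass the test between the 2-DG doses, while their 10 mM samples lay wholly above their 5 mM samples, as was so for 16.4% of tested genes. In a fit of the 2 groups alone Atf4 passed (0.16, adjusted p = 0.049). The dose steps of the inhibitors differ in size, and the difference between their effects was not tested. The plot of differences between inhibitors and doses shows both steps side by side.

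**Figure D4:**
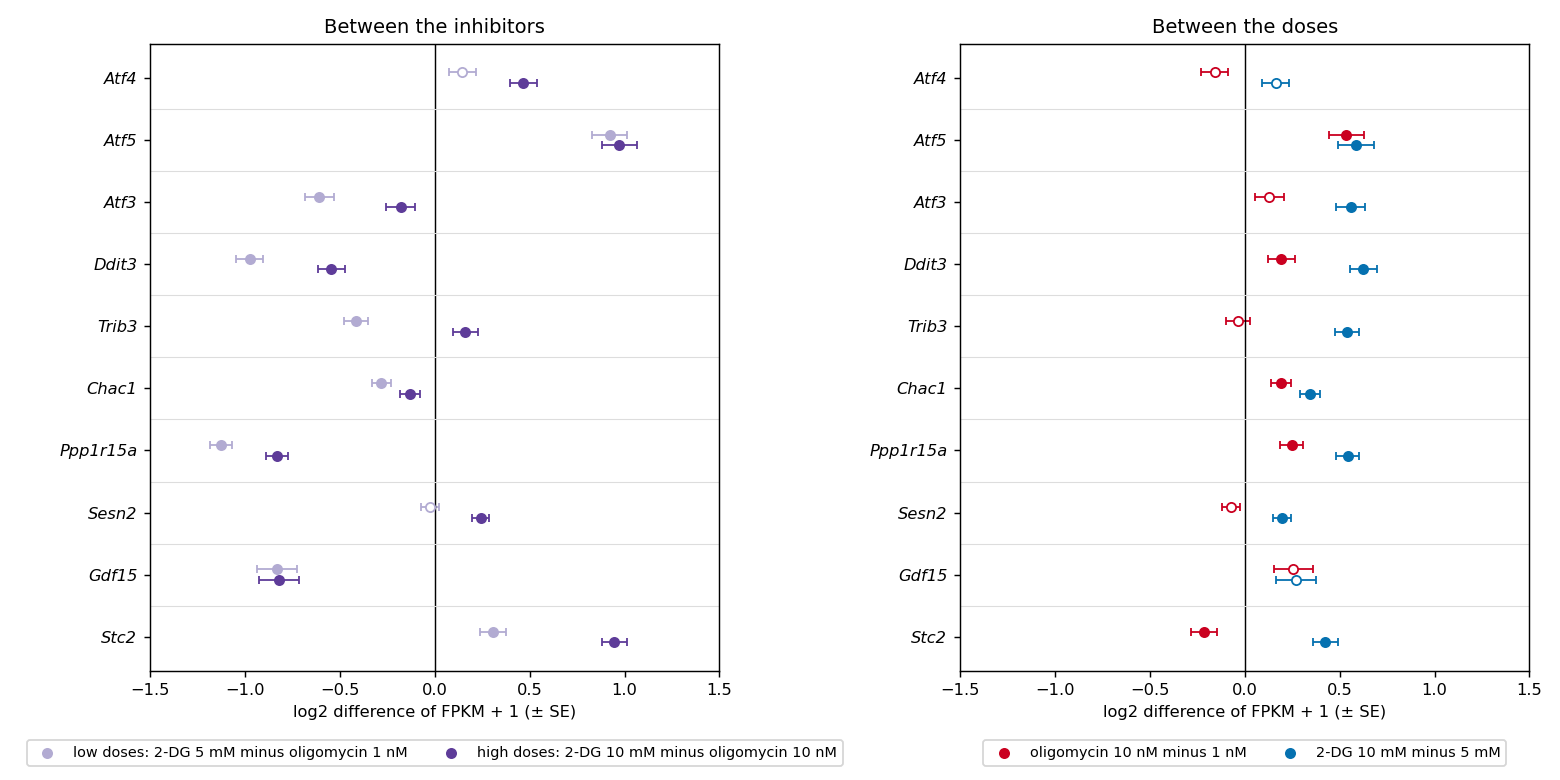
Log2 difference of FPKM + 1 for the 10 response genes, with the SE of the limma fit as whiskers. The left panel is 2-DG minus oligomycin at the lower and at the higher doses, the right panel the higher minus the lower dose of each inhibitor, and open points did not pass the test. In the left panel Atf4, Atf5 and Stc2 lie right of 0 at both dose levels, with Atf4 open at the lower doses. Atf3, Ddit3, Chac1, Ppp1r15a and Gdf15 lie left of 0 at both.

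Set beside each other, the inhibitors gave different levels of most response genes, as they did of most tested genes. The median log2 difference of the 10 genes, 2-DG minus oligomycin, was -0.35 at the lower and 0.02 at the higher doses. For all tested genes it was 0 and 0.04. The doses are of different compounds and are matched only as the study's lower and higher dose, each taken for 48 hours. Between 5 mM 2-DG and 1 nM oligomycin, 2 of the 10 genes were higher with 2-DG, 6 were lower and 2 did not pass the test, while 63.3% of tested genes differed, 30.9% upward and 32.3% downward. Between 10 mM 2-DG and 10 nM oligomycin, 5 were higher and 5 lower, while 70.8% of tested genes differed, 37.7% upward and 33.2% downward.

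Atf5 and Stc2 were higher with 2-DG at both dose levels. Atf5 was higher by 0.92 at the lower doses (adjusted p = 1.2e-06) and by 0.97 at the higher doses (adjusted p = 3.9e-07) in limma's test, and Stc2 by 0.31 (adjusted p = 0.0011) and 0.95 (adjusted p = 1.5e-08). Ppp1r15a, Gdf15 and Ddit3 were lower with 2-DG at both dose levels. The log2 difference of Ppp1r15a was -1.13 (adjusted p = 2.6e-09) and -0.83 (adjusted p = 2e-08), that of Gdf15 -0.83 (adjusted p = 1e-05) and -0.82 (adjusted p = 7.6e-06), and that of Ddit3 -0.98 (adjusted p = 5.5e-08) and -0.54 (adjusted p = 9.6e-06). Atf3 and Chac1 were lower with 2-DG at the lower doses, with differences of -0.61 (adjusted p = 9.9e-06) and -0.28 (adjusted p = 0.00028). Atf4 (0.47, adjusted p = 3.7e-05) and Sesn2 (0.24, adjusted p = 0.00032) were higher with 2-DG at the higher doses, and at the lower doses their differences were 0.15 (95% confidence interval -0.01 to 0.30, adjusted p = 0.085) and -0.03 (-0.13 to 0.07, adjusted p = 0.65).

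Trib3 was lower with 2-DG at the lower doses (-0.42, adjusted p = 6.2e-05) and higher at the higher doses (0.16, adjusted p = 0.035) in limma's test. That second call was lost without 10 nM replicate 1 (0.08, adjusted p = 0.15), 10 mM replicate 1 (0.13, adjusted p = 0.12) or 10 mM replicate 2 (0.16, adjusted p = 0.07), with no filter on low values (0.16, adjusted p = 0.064), with median ratio scaling (0.10, adjusted p = 0.11) and in a fit of the 2 groups alone (0.16, adjusted p = 0.13). Its samples did not overlap at either dose level, and 36% of tested genes lay wholly below with 2-DG at the lower doses and 37.9% wholly above at the higher doses. At the higher doses the calls of Atf3 (-0.18, adjusted p = 0.049) and Chac1 (-0.13, adjusted p = 0.036) also lay close to the threshold. Leaving out 1 of 4 samples ended each of them, namely replicate 2 or 3 of 10 nM oligomycin or replicate 1 or 3 of 10 mM 2-DG, with adjusted p for Atf3 of 0.21, 0.16, 0.064 and 0.2 and for Chac1 of 0.074, 0.11, 0.062 and 0.15. A fit of the 2 groups alone also ended both calls (adjusted p = 0.15 and 0.11). The call of Atf3 was further lost with a pseudocount of 0.1, no filter on low values, a replicate block or no trend (adjusted p = 0.051, 0.098, 0.053 and 0.055).

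Ordered by mean level, the control was lowest for all 10 genes, the 10 mM 2-DG group was highest for Atf4, Atf5, Trib3, Sesn2 and Stc2, and the 10 nM oligomycin group was highest for Atf3, Ddit3, Chac1, Ppp1r15a and Gdf15. Of the 40 pairs of neighbouring groups in these orders, 28 differed and 12 did not pass the test. These pairs include comparisons across dose levels, where 74.4% of tested genes differed between 5 mM 2-DG and 10 nM oligomycin and 57.9% between 10 mM 2-DG and 1 nM oligomycin. For Atf5, Ppp1r15a and Stc2, whose 5 levels did not overlap, all neighbours differed. All neighbours of Ddit3 differed too, though its oligomycin groups overlapped. The 5 levels of Atf4 did not overlap either, but only its step from control to 10 nM oligomycin passed. The share of tested genes with 5 levels apart was not counted. For Atf3 the steps from control to 5 mM and from 5 mM to 10 mM 2-DG passed.

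Ratios within a sample describe the same contrast per library. The ratio of Ddit3 to Atf5 FPKM was 0.346 ± 0.0465 in the control group, 0.857 ± 0.034 and 0.674 ± 0.0253 with 1 nM and 10 nM oligomycin, and 0.222 ± 0.0145 and 0.231 ± 0.00764 with 5 mM and 10 mM 2-DG (SD, n = 3). Oligomycin samples thus lay above and 2-DG samples below all control samples. The ratio of Gdf15 to Stc2, the 2 secreted products, behaved alike, at 1.32 ± 0.0664 in control, 2.02 ± 0.192 and 2.89 ± 0.243 with oligomycin, and 0.85 ± 0.0505 and 0.759 ± 0.0359 with 2-DG. Trib3 to Atf4 went up in every treated group, from 0.113 ± 0.0063 to 0.272 ± 0.00441 and 0.295 ± 0.00946 with oligomycin and 0.183 ± 0.00166 and 0.239 ± 0.00297 with 2-DG. These ratios were formed after the levels were seen and carry no test.

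Across the 15 samples, which include the 5 group differences, the response genes differed in how alike they were. Atf4 correlated with Stc2 at a Pearson r of 0.985 on log2(FPKM + 1), and with Atf5 and Sesn2 at 0.908 and 0.943. Ddit3 correlated with Atf3, Gdf15, Chac1 and Ppp1r15a at 0.987, 0.978, 0.96 and 0.948, and Ppp1r15a correlated with Stc2 at 0.308 and with Atf4 at 0.337. Trib3 was close to both, at 0.952 with Atf3 and 0.927 with Ddit3 and at 0.943 with Sesn2 and 0.851 with Atf4, and Sesn2 correlated with Chac1 at 0.894 and with Atf5 at 0.875. Among the 8674 tested genes whose mean reached 5 FPKM in some group, those most like Trib3 were Slc1a4, a neutral amino acid transporter, at 0.99, Aldh18a1, an enzyme of proline synthesis, at 0.983, and Chac1 at 0.979. Those most like Ddit3 included Scpep1, a serine carboxypeptidase, at 0.989 and Atf3 at 0.987. Those most like Atf4 were Stc2, Vps11, of vesicle tethering complexes, at 0.97, and Sars, the seryl-tRNA synthetase, at 0.97. Scpep1 was also among the 3 most like Gdf15 (0.988), and Slc38a7, an amino acid transporter, among the 3 most like Sesn2 (0.977) and Stc2 (0.98). All of these points share their libraries and group differences, and no p is given.

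The mRNAs of the eIF2 kinases and their activators, upstream of Atf4 in the pathway, showed small changes in both directions. Of the 8 eIF2 kinases and their activators, 3 rose and 1 fell at 1 nM oligomycin, 2 rose and 3 fell at 10 nM, and 1 rose and 2 fell at each 2-DG dose, with list medians of 0.02, -0.13, -0.01 and -0.01 on the log2 scale. Eif2ak1, the kinase that takes up mitochondrial stress signals through OMA1 and DELE1, fell by 0.36 (adjusted p = 7.4e-05) and 0.32 (adjusted p = 0.00013) with 1 nM and 10 nM oligomycin in limma's test. With 2-DG its changes were 0.01 and 0.02 (adjusted p = 0.92 and 0.83). Eif2ak2, the kinase PKR, rose by 0.25 at both oligomycin doses (adjusted p = 0.0078 and 0.0068) and fell by 0.46 and 0.23 with 5 mM and 10 mM 2-DG (adjusted p = 0.00027 and 0.018). Oma1, the mitochondrial protease, fell by 0.41 and 0.49 with 2-DG (adjusted p = 0.003 and 0.00053), and its changes with oligomycin were -0.10 and -0.18 (adjusted p = 0.37 and 0.087). Impact, an inhibitor of the kinase GCN2, rose by 0.37 with 1 nM oligomycin (adjusted p = 9.9e-06) and by 0.28 and 0.31 with 2-DG (adjusted p = 0.00034 and 0.00011), with 0.09 at 10 nM oligomycin (adjusted p = 0.1).

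Of 16 genes for eIF2, eIF2B, the phosphatase and related initiation factors, 0 rose and 12 fell at 1 nM oligomycin and 1 rose and 14 fell at 10 nM, with medians of -0.24 and -0.51. At 5 mM 2-DG 2 rose and 3 fell, and at 10 mM 3 rose and 4 fell (4 called in all without control replicate 1 or without replicate 1 of 10 mM), with medians of 0.05 and 0. Eif2b1, a regulatory subunit of the exchange factor, fell by 0.69 and 0.82 with 1 nM and 10 nM oligomycin (adjusted p = 8.7e-07 and 5.7e-08) and changed by 0.02 and -0.11 with 2-DG (adjusted p = 0.82 and 0.2) in limma's test. Eif2b4, another subunit, fell by 0.42 and 0.83 (adjusted p = 0.0011 and 1e-06), and Ppp1cc, a catalytic subunit of protein phosphatase 1, by 0.46 and 0.81 (adjusted p = 3.2e-06 and 3.4e-09). Eif2a, which is not a subunit of eIF2, fell by 0.44 and 0.91 (adjusted p = 6.4e-05 and 2.1e-08).

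Among 21 tested genes, mostly bZIP factors that can partner ATF4 or its relatives, 15, 17, 12 and 16 rose and 3, 3, 1 and 2 fell at 1 nM, 10 nM, 5 mM and 10 mM (8 called in all at 5 mM without its replicate 1, against 13). The medians were 0.48, 0.65, 0.19 and 0.37, and Xbp1 stands both in this list and in that of the endoplasmic reticulum below. Jdp2, a repressor of AP-1, rose by 1.31, 1.83, 0.62 and 1.04 (adjusted p = 2.4e-09, 1.8e-11, 9.8e-06 and 4.2e-08 in limma's test). Cebpb, a partner of ATF4, rose by 0.82, 1.44, 1.02 and 1.02, with an SE of 0.25 and adjusted p of 0.0095, 1e-04, 0.0055 and 0.0036. The AP-1 genes Fos, at 1.03, 1.28, 0.55 and 0.79, and Fosl1, at 0.60, 1.46, 0.19 and 0.52, rose in all 4 comparisons, and for both the adjusted p was highest at 5 mM, 5.4e-06 and 0.037.

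Of 30 other genes listed as ATF4 targets, 26, 23, 20 and 22 rose and 1, 5, 5 and 4 fell, with medians of 0.63, 0.48, 0.37 and 0.65. Adm2, a peptide hormone gene, rose by 1.20, 1.46, 1.16 and 1.73, and Nupr1, a stress-induced chromatin protein, by 1.58, 1.45, 0.74 and 1.11 (highest adjusted p = 5.4e-06 and 0.00012 in limma's test). Sqstm1, the autophagy receptor p62, rose by 1.05, 1.54, 0.28 and 0.69 (highest adjusted p = 0.0044). Stbd1, a glycogen-binding protein, rose by 1.32, 1.68 and 0.61 at 1 nM, 10 nM and 10 mM, and at 5 mM its change was 0.24 (adjusted p = 0.071). Those of the 30 that fell at 5 mM 2-DG were Pmaip1 (-1.27), Ddit4 (-0.88), Bbc3 (-0.67), Gadd45a (-0.4) and Tnfrsf10b (-0.3). Except for Gadd45a, the same genes fell at 10 mM. With oligomycin Ddit4, Gadd45a and Tnfrsf10b rose at both doses, Bbc3 rose at 1 nM, and Pmaip1 fell at 10 nM. Sqstm1 and Stbd1 were both lower with 2-DG than with oligomycin at both dose levels, with differences of -0.78 and -0.85 (adjusted p = 1.8e-07 and 3.3e-08) and of -1.09 and -1.07 (adjusted p = 3.2e-07 and 1.9e-07), as Ppp1r15a and Ddit3 were. The list as a whole was split between the inhibitors. With 2-DG, 7 of the 30 were higher and 16 lower at the lower doses, and 14 were higher and 11 lower at the higher doses. Fgf21 is counted as rising with oligomycin and as lower with 2-DG. Its mean was 1.24 and 1.18 FPKM with oligomycin, against 0.41 in control and 0.576 and 0.583 with 2-DG. It passed the filter of 1 FPKM only through the oligomycin samples, so its calls are no independent sign.

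The unfolded protein response of the endoplasmic reticulum, which runs through IRE1 and ATF6 beside the eIF2 kinase PERK, moved with 2-DG. Of its 20 genes 6 rose and 4 fell at 1 nM oligomycin (6 called in all without control replicate 3), 9 rose and 4 fell at 10 nM, 20 rose and 0 fell at 5 mM 2-DG, and 19 rose and 0 fell at 10 mM. The medians were 0.06, 0.12, 0.65 and 0.84. In the direct comparison 17 were higher and 0 lower with 5 mM 2-DG than with 1 nM oligomycin, and 18 were higher and 0 lower with 10 mM than with 10 nM. Herpud1, of the degradation machinery of that compartment, rose by 1.09, 1.18, 1.43 and 1.82 in the 4 comparisons with control (highest adjusted p = 1.2e-08 in limma's test). The chaperone genes Pdia4, at 0.98 and 1.35, Dnajc3, at 0.89 and 1.32, and Dnajb9, at 0.78 and 1.20, rose with 5 mM and 10 mM 2-DG (highest adjusted p = 8.1e-08, 2.4e-07 and 1.8e-05). With oligomycin their changes were 0.04 and 0.21 for Pdia4 (adjusted p = 0.59 and 0.006), 0.21 at both doses for Dnajc3 (adjusted p = 0.011 and 0.0088), and 0.21 and 0.20 for Dnajb9 (adjusted p = 0.052 and 0.053).

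Gdf15 and Sesn2 are also known as targets of p53, and most of the other p53 targets listed here rose with oligomycin. Of 15 tested, 12 rose and 1 fell at 1 nM, 11 rose and 1 fell at 10 nM, 0 rose and 8 fell at 5 mM 2-DG, and 4 rose and 5 fell at 10 mM, with medians of 0.52, 0.61, -0.20 and -0.07. Between the inhibitors 13 of the 15 were lower with 2-DG at each dose level, and 0 and 1 were higher. Cdkn1a, the cell cycle inhibitor p21, rose by 0.87 and 1.18 with oligomycin (adjusted p = 1.7e-08 and 2e-10 in limma's test) and changed by -0.15 and 0.07 with 2-DG (adjusted p = 0.05 and 0.34). Plk2, a polo-like kinase gene, rose by 0.94 and 1.35 with oligomycin and by 0.35 with 10 mM 2-DG (adjusted p = 6.2e-09, 3.6e-11 and 0.00012). Phlda3, an inhibitor of AKT, rose by 0.65 and 1.00 with oligomycin (adjusted p = 9.5e-05 and 6.9e-07), and Ccng1, a cyclin gene, by 0.64 and 0.86 (adjusted p = 8.8e-07 and 1.5e-08). Gdf15 was highest with 10 nM oligomycin and Sesn2 with 10 mM 2-DG, and the part of p53 in their levels was not tested.

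**Figure D5:**
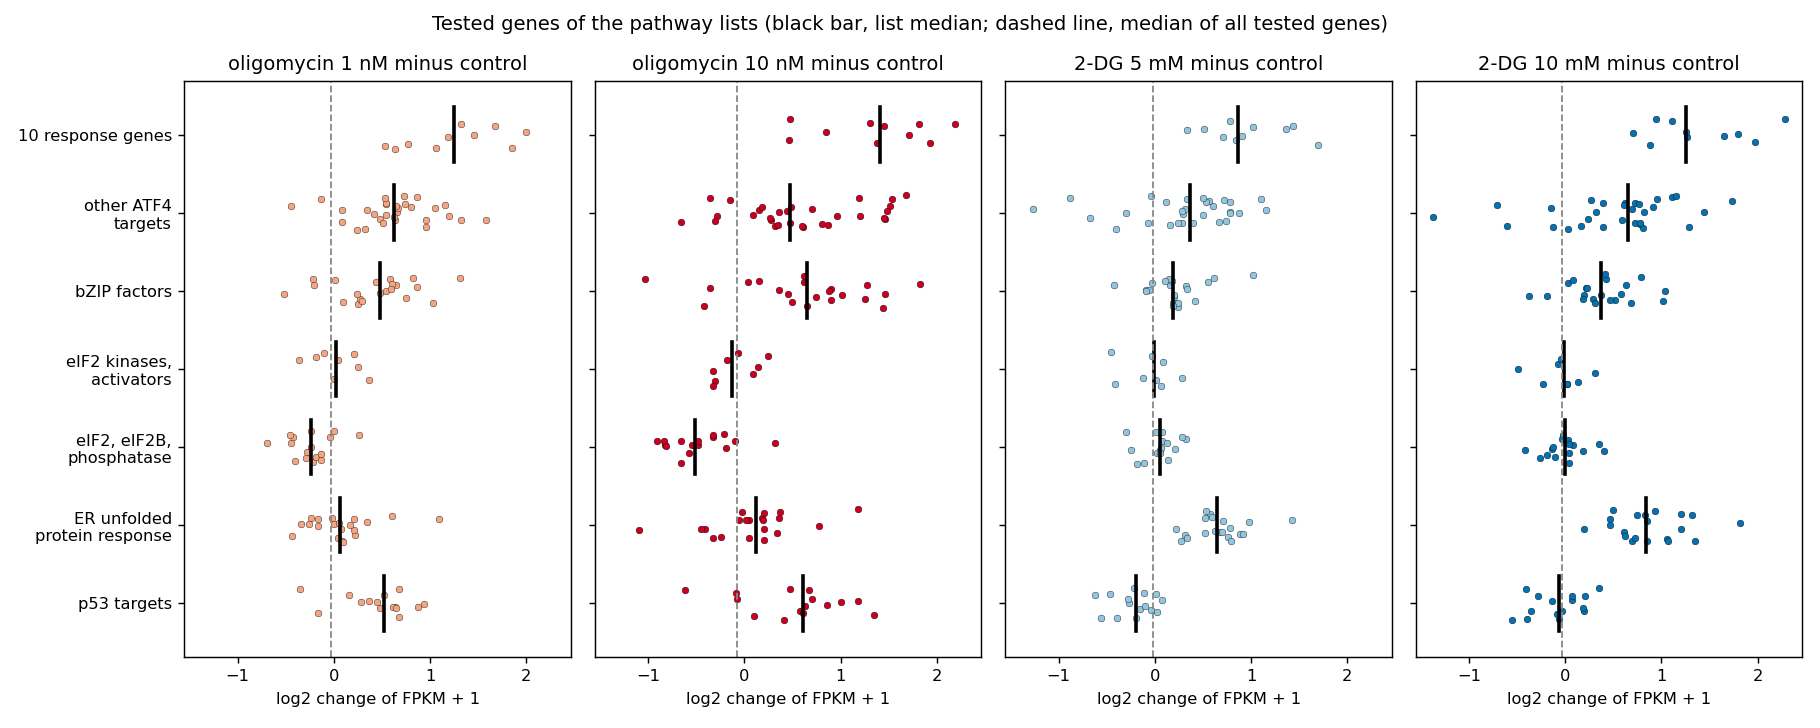
Log2 change of FPKM + 1 against control for the 10 response genes and for the tested genes of 6 related lists, 1 panel per treated group. Each point is a gene, the black bar is the median of its list and the dashed line the median of all tested genes. The bar of the 10 response genes lies at 1.25, 1.41, 0.87 and 1.26, and that of the endoplasmic reticulum list at 0.06, 0.12, 0.65 and 0.84.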

How the data were processed

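RNA-seq of 15 libraries of mouse embryonic stem cells was used. The deposited table holds FPKM, calculated by the authors, 1 value per gene and sample. HISAT2 2.1.0, Bowtie2 2.2.3, HTSeq 0.6.0 and build GRCm38 are named per the submitters' processing notes, without their roles, and strandedness is not given in the sources used here. The response genes and all lists were chosen with earlier results of these data known. Of 32152 genes, 13284 passed a filter of 1 FPKM, reached in 3 or more samples, and were tested (limma 3.58.1 in R 4.3.3, trended empirical Bayes, 1 mean per group over all 15 samples, two-sided, pseudocount 1, Benjamini-Hochberg adjustment over tested genes). Library depth was estimated from the steps of low values with GENCODE M21 exon lengths. Of low values, 99.3% to 99.6% per sample were whole reads within 0.05 read. The design allows all 10 pairs of groups. Apart from the 10 response genes, up to 4 genes per list with the largest change past the threshold against control are named (S100a4, Tagln and Ptprc are named outside this rule for being near 0), and of the genes most like a response gene those of Trib3, Ddit3 and Atf4 and those shared by at least 2. Of these, 1 gene is not reported here. Gcn1 and Dele1 are listed under older symbols, 1 line without a gene was left out, and Batf3 was not tested. Promoter windows were RefSeq sequences. Alternatives were another pseudocount, no filter on low values, median ratio and quantile scaling, no trend, fits of the compared groups alone, a replicate block, and leaving out each replicate. The fit was tested on simulated data.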

Additional observations from a re-analysis of the deposited data

Results flagged for a closer look

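For 3 genes the samples of a pair of groups moved one way, with no overlap, and those of a matching pair moved the opposite way. The difference between the 2 opposite moves was not tested, and the tests of the single moves and the share of all tested genes without overlap stand in the report. Atf4 was lower at 10 nM than at 1 nM oligomycin (-0.16 on the log2 scale, adjusted p = 0.082) and higher at 10 mM than at 5 mM 2-DG (0.16, adjusted p = 0.2), and neither move passed limma's test. Stc2 moved by -0.21 (adjusted p = 0.017) and 0.43 (adjusted p = 0.0028) in the same pairs. Its first call was lost without 1 nM replicate 3 (-0.20, adjusted p = 0.052) or 10 nM replicate 1 (-0.15, adjusted p = 0.063). Trib3 was lower with 5 mM 2-DG than with 1 nM oligomycin (-0.42, adjusted p = 6.2e-05) and higher with 10 mM 2-DG than with 10 nM oligomycin (0.16, adjusted p = 0.035), where the closest samples were 78.7 and 78.5 FPKM. That second call was lost without 10 nM replicate 1 (0.08, adjusted p = 0.15), 10 mM replicate 1 (0.13, adjusted p = 0.12) or 10 mM replicate 2 (0.16, adjusted p = 0.07).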

How the results depend on the processing

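All 520 alternative values of the 10 genes against control, over the settings named in the methods, kept their direction and their side of the threshold, with 0.0051 as the highest adjusted p in limma's test (Ppp1r15a at 5 mM 2-DG without control replicate 2). Of 780 alternative values of the other comparisons of these genes, 725 kept direction and call, 36 lost the call, 13 gained it and 6 reversed. The reversed values were small. Trib3 between the oligomycin doses was 0.01 with median ratio scaling and -0.09 to 0.05 when 1 replicate was left out, above 0 without 10 nM replicate 1 (reported, -0.04). Atf3 in 10 mM 2-DG against 1 nM oligomycin was -0.09 to 0.01 when 1 replicate was left out, above 0 without 10 mM replicate 3, and Chac1 in the same comparison was -0.01 with quantile scaling. Sesn2 in 5 mM 2-DG against 10 nM oligomycin was -0.01 with median ratio and -0.06 with quantile scaling. Quantile scaling also made the fall of Atf4 between the oligomycin doses pass (-0.29, adjusted p = 5.8e-05). With median ratio and quantile scaling, Gdf15 (0.30 in both, adjusted p = 0.017) and Atf3 (0.18 and 0.20, adjusted p = 0.046 and 0.035) also passed there. The cause of these changes was not tested. The count of response genes that differed between the oligomycin doses, 5, was 3 in the fit of the 2 groups compared and 3 to 6 when 1 replicate was left out. List counts moved as follows. The 16 initiation genes gave 8 instead of 5 calls at 5 mM 2-DG with either other scaling (4 to 5 with a replicate left out), and 4 instead of 7 at 10 mM without the filter (4 to 7). The macrophage markers gave 2 instead of 4 at 1 nM oligomycin without the filter (2 to 4) and 3 instead of 5 at 10 nM (3 to 5). With a replicate left out, the bZIP list at 5 mM gave 8 to 11 (reported, 13), the endoplasmic reticulum list at 1 nM 6 to 9 (reported, 10), and the stem cell markers 1 to 3 at 5 mM and 2 to 4 at 10 mM 2-DG. With the replicate number as a block, 2 calls of response genes were lost, Atf3 in 10 mM 2-DG against 10 nM oligomycin (-0.18, adjusted p = 0.053) and Ddit3 between the oligomycin doses (0.19, adjusted p = 0.053), and 27 instead of 28 neighbouring pairs differed. Deviations from the group means cannot exclude that the replicate numbers pair the samples. Same-numbered samples deviated together at r = -0.238 to 0.371 and over 0.1 in 3 of 30 pairs. Of 60 comparisons of a sample, 19 were best with its own number. No scaling moved the median of all genes by more than 0.08.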
